A study of Mus musculus with 4 samples.

Results

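The genes examined were the 48 that encode the licensing and fork machinery of DNA replication: the MCM2-7 helicase and its partners, the origin recognition complex (ORC), the loading factors, the sliding clamp and its loaders, the replicative polymerases, the single-strand binding protein RPA, the enzymes of Okazaki fragment maturation, the chromatin assembly factor CAF-1 and 4 enzymes of deoxynucleotide supply. They were chosen by name, as every probe whose gene name, or an older synonym of it, was on the list, and they are 48 of the 16649 genes measured. Cardiac mesenchymal progenitors (CMPs) are Sca-1+ cells isolated from the hearts of adult wild-type C57BL/6 mice. By the labels, CMPs were grown on collagen I in medium with 10% FBS and 40 ng/ml bFGF. The CMP control had no treatment and was labelled as day 0. OSKM-CMPs were the same kind of cell transduced with Sendai viruses carrying Oct4, Sox2, Klf4 and c-Myc, kept afterwards in reprogramming medium and sampled at days 4, 6 and 8. Each of the 4 conditions had 1 array and none had a replicate, so differences between arrays carry no p-value and each comparison with the control rests on the same control array. As the untreated cells were sampled at 1 time only, the factors, the change of medium and time in culture cannot be told apart.

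DNA replication begins at origins that are marked by ORC, on which CDC6 and CDT1 load the MCM2-7 ring while the cell is in G1 phase. In S phase CDC45 and the GINS complex join MCM2-7 to make the active helicase, and the polymerases, held on DNA by the PCNA clamp, copy both strands. Many of these genes are transcribed at the G1/S boundary by E2F factors, whereas some ORC subunits are made throughout the cell cycle. In total RNA from a culture, a smaller share of replicating cells and less of an mRNA in each cell cannot be told apart.

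RefSeq promoter windows of assembly GRCm38.p6, 250 bases before and 50 after an annotated start, were at hand for 39 of the 48 genes and not for Rfc2, Gmnn, Mcm4, Prim2, Gins1, Gins2, Gins4, Pole and Dscc1. They were searched on both strands for 4 words of the E2F site, TTTCCCGC, TTTCGCGC, TTTGCCGC and TTTGGCGC, with overlapping matches counted. At least 1 word lay in the window of 14 of the 39 genes (35.9%), against 704 of all 27025 genes with a window (2.60%). These 27025 include genes that were not measured on the arrays, whereas all 39 were measured. The upstream part of 5 windows is shown, since these genes hold such words before the start and range from the largest fall of the helicase (Mcm5) to the highest value of the set (Orc3). The stretches, read 5′ to 3′ along the gene, are chr8:75109259-75109508 on the plus strand for Mcm5, chr1:128359706-128359955 on the minus strand for Mcm6, chr4:108579204-108579453 on the plus strand for Orc1, chr4:34614943-34615192 on the minus strand for Orc3 and chr8:95633309-95633558 on the plus strand for Gins3. Capitals mark the E2F words.
Mcm5: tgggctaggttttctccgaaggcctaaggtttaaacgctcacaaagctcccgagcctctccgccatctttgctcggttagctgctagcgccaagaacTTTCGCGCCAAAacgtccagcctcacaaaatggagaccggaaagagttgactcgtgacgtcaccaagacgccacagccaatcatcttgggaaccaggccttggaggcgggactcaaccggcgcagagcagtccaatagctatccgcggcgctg
Mcm6: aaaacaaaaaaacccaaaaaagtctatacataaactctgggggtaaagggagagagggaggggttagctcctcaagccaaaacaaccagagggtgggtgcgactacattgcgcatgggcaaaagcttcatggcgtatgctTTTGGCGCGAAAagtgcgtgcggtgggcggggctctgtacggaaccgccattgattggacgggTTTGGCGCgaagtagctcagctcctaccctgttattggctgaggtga
Orc1: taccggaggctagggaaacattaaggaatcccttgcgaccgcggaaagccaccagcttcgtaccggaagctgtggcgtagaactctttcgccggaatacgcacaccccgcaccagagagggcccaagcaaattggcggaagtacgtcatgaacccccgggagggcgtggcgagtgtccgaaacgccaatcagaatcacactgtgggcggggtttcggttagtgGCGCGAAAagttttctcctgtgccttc
Orc3: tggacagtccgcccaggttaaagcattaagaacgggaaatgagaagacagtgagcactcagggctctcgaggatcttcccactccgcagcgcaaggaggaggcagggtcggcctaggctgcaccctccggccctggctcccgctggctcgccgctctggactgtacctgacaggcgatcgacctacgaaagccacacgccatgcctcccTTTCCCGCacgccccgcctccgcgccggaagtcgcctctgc
Gins3: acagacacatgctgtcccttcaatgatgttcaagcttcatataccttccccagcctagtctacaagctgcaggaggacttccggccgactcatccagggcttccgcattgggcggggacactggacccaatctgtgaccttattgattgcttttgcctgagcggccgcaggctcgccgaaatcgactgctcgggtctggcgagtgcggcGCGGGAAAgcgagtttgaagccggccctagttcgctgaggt
The Mcm5 stretch holds a pair of overlapping words on opposite strands, and the Mcm6 stretch holds such a pair and a further word nearer the start. Orc1, Orc3 and Gins3 have 1 word each.

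Expression is given as the log2 processed signal of a gene relative to the 75th percentile of its array, so that 0 is that percentile and a difference of 1 is a 2-fold change. The error of a difference (±) is 1 SD of the scanner software's error model, which covers spots and background and neither cultures nor RNA preparation. A gene was said to fall or rise only where it differed by at least 2-fold. All 48 genes were well above background on all 4 arrays. Of their 63 probes, 60 were kept, and the error of the day 8 difference had a median of 0.20 and ranged from 0.14 to 0.29. Levels of different genes are not set against each other, because probes differ in brightness, and only changes of a gene between arrays are compared.

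The arrays were alike in quality, with 56.6% to 59.6% of 55681 probes well above background, no saturated spot, and all 4 read on 1 slide in 1 scan. All 10 markers of mesenchymal progenitors were above background on every array, with a summed linear signal (in units of the array's 75th percentile) of 1675 in the control and 1501, 1384 and 1358 at days 4, 6 and 8. Adipocyte markers, of which 3, 7, 7 and 8 of 8 were above background in that order, had a summed signal of 5.0, 46.9, 161 and 351. Those of leukocytes lay between 0.479 and 0.798 with Laptm5 not measured, those of endothelial cells between 1.06 and 1.80 with Cdh5 and Tie1 not above background after the control, and those of cardiomyocytes between 4.10 and 11.9 with Actn2 not measured. Pluripotency markers lay between 1.03 and 1.19 with Zfp42 not measured. Such sums follow the brightest genes and hide changes of single markers. Of the progenitor markers, Thy1 (-1.78) and Eng (-1.19) were lower by 2-fold at day 8, and Ly6a (2.70) and Nt5e (2.10) were higher. Of all genes, 11.6% were lower and 14.4% higher. Also lower were 1 leukocyte, 3 endothelial and 1 cardiomyocyte marker, and 2 leukocyte, 2 cardiomyocyte and 1 pluripotency marker were higher. The part of these markers in the results below was not tested. Of the transduced factors, the mouse probes gave Myc a day 8 difference of -3.08 ± 0.15 and Klf4 one of -0.81 ± 0.20, and probes of Pou5f1 and Sox2 were not above background on any array. Whether these probes detect the viral transcripts is not given in the sources used here.

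Most replication genes were lower in OSKM-CMPs than in the CMP control, and lower at each later day. At day 4, 14 of the 48 had fallen by at least 2-fold, where 9.56% of all 16649 genes had, and this count was 8 after normexp background correction. At day 6 it was 27, where 11.4% of all genes had fallen, and at day 8 it was 33, where 11.6% had. No replication gene rose by 2-fold on any of the 3 days, although 12.0%, 13.0% and 14.4% of all genes had risen by then. At day 8, normexp correction left 7.33% of all genes lower and 6.19% higher by 2-fold, beside 31 lower replication genes. The median difference of the 48 genes from the control was -0.78, -1.15 and -1.64 at days 4, 6 and 8, whereas the median of all genes stayed between -0.04 and -0.01. Scaled to the array median instead, all genes had a median of -0.30 at day 8. The median of the replication genes minus that of all genes was -1.61, a difference that a change of scale cannot move, and it was -1.18 after normexp correction and -1.14 after normexp with quantile normalization. In 41 of the 48 genes the levels were in strict order from the control down through days 4, 6 and 8, an order held by 15.9% of all genes. In 42 of them every day lay below the control, which was so for 40.5% of all genes. Both counts take any decrease, also one within the error. Examples are the day 8 minus day 6 differences of Prim2 (-0.02 ± 0.16), Gins4 (-0.04 ± 0.20) and Pcna (-0.05 ± 0.20).

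**Figure D1:**
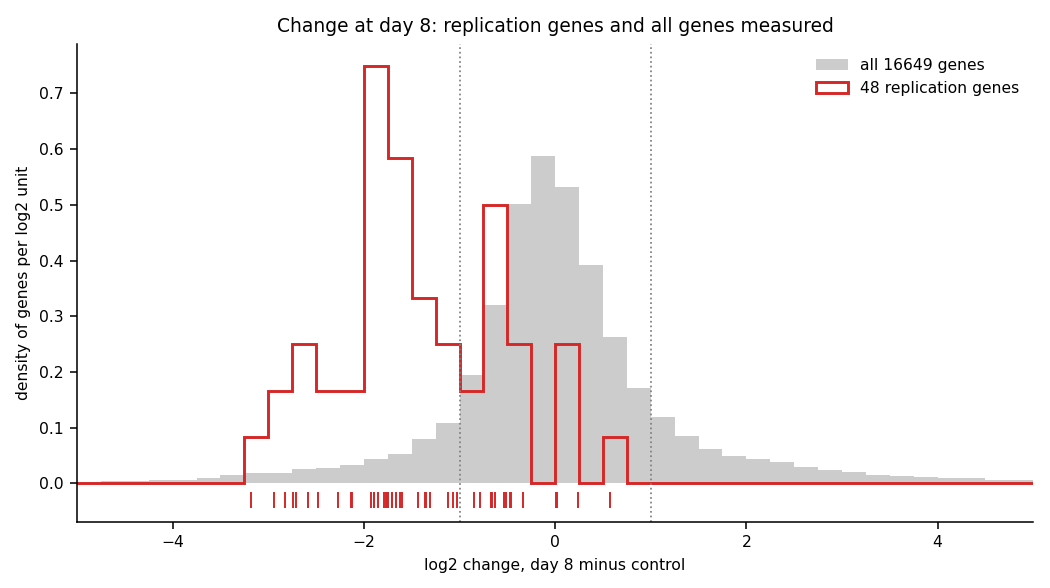
Log2 change at day 8 minus control, as density of genes per log2 unit, for all 16649 genes measured (grey) and the 48 replication genes (red outline, 1 red tick per gene below the axis); dotted lines mark 2-fold in either direction and genes beyond the ends of the axis are not drawn. The replication genes lay between -3.19 and 0.57, with 33 of them left of the lower dotted line and 0 right of the upper one.

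The MCM2-7 ring, the motor of the replicative helicase, fell as a whole: all 6 subunits were at least 2-fold lower at day 8, with a median of -1.49. Mcm5, a subunit at the gate through which the ring opens, had a level of 3.34 in the CMP control and of 2.15, 1.46 and 0.63 in OSKM-CMPs at days 4, 6 and 8. That is a difference of -2.71 ± 0.20, which left 15.3% of the control signal. Mcm7, which is part of the catalytic core of the ring, went from 4.47 to 3.96, 3.71 and 3.41, a difference of -1.06 ± 0.20 that was within 1 error of the 2-fold line and was -0.87 after quantile normalization. The other subunits lay between these, at -1.89 for Mcm3, -1.62 for Mcm2, -1.37 for Mcm4 and -1.35 for Mcm6. Although the subunits form 1 complex, the change of Mcm5 was lower than that of Mcm7 by more than the error (difference -1.65 ± 0.29). At day 4 only Mcm5 had passed 2-fold (-1.19), and at day 6 Mcm2, Mcm3 and Mcm4 had joined it.

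Among the helicase partners, Cdc45, Mcm10 and 2 of the 4 GINS genes fell by day 8. Gins2, a GINS subunit, had levels of 2.46 in the control and 1.00, 0.54 and -0.02 at days 4, 6 and 8, a difference of -2.48 ± 0.20. Gins3, which sits in the same complex, had levels of 4.85, 4.98, 4.68 and 4.39. Its day 4 array was above the control by 0.13 ± 0.20 and its day 8 array was 0.46 below it, so that the changes of Gins2 and Gins3 differed by -2.02 ± 0.29. Gins1 (-1.71 ± 0.20) was close to Mcm10 (-1.71 ± 0.20), a factor needed to start the assembled helicase, and Gins4 (-0.85 ± 0.20) did not reach 2-fold. Cdc45, which bridges MCM2-7 and GINS, went from -1.33 to -2.85, -3.14 and -3.22, a difference of -1.89 ± 0.22 of which 80.7% was present by day 4. Normexp correction gave it a difference of -1.08.

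**Figure D2:**
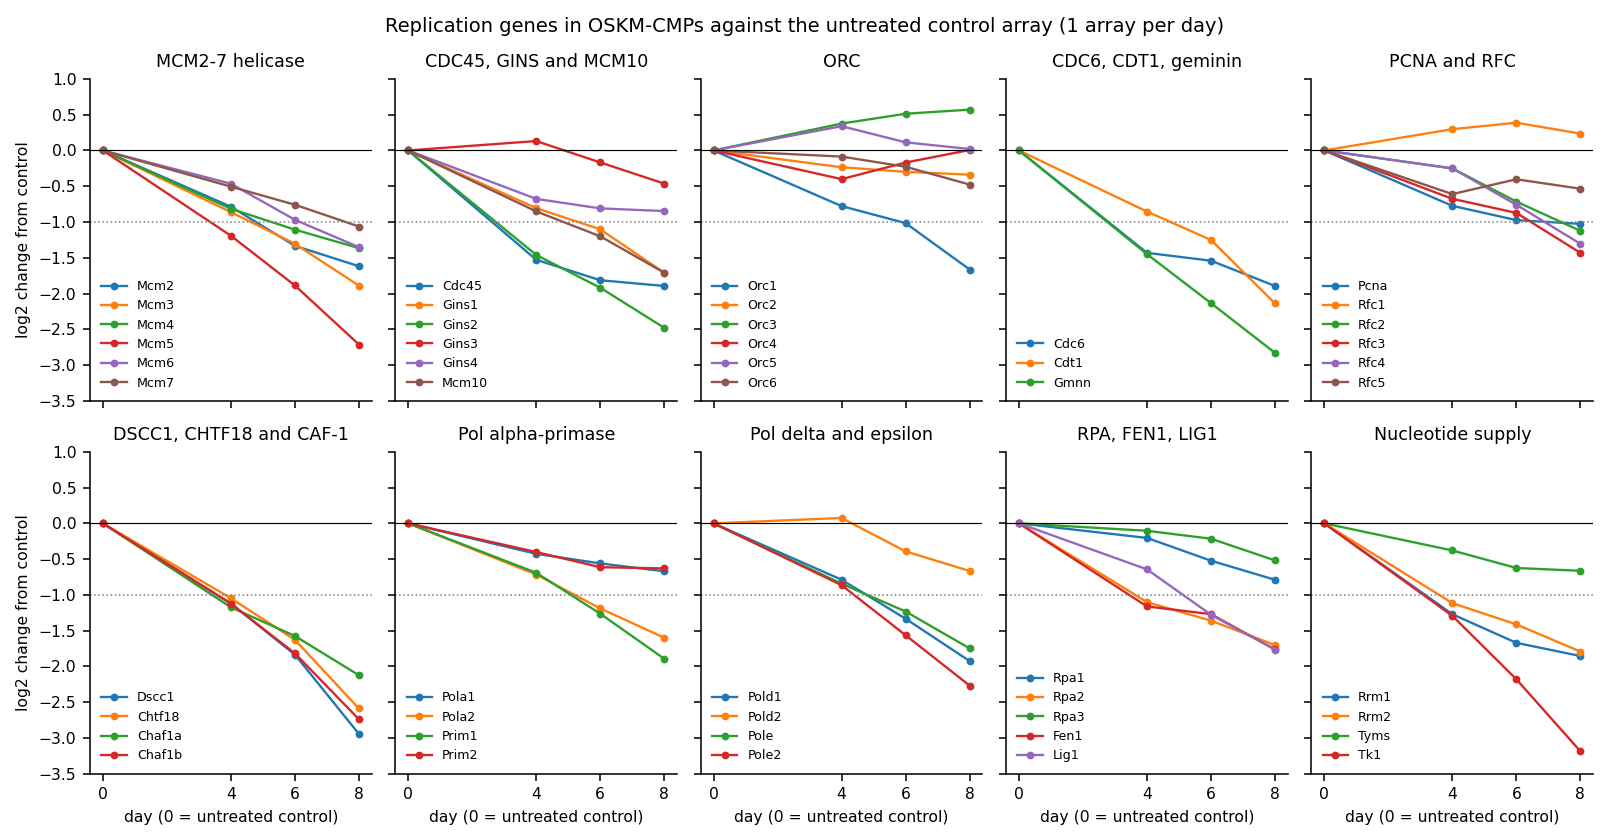
Log2 change from the control array (y axis) against day (x axis, day 0 being the untreated control) for the 48 genes in 10 panels by subcomplex, with 1 array per day; the dotted line marks a 2-fold fall. Most lines run downward from day to day, while Orc3, Orc5 and Rfc1 lay above 0 on all 3 days and Gins3 and Pold2 at day 4.

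The ORC genes stood apart from the helicase that they help to load. Only Orc1 fell: its levels were -2.86 in the control and -3.64, -3.88 and -4.52 at days 4, 6 and 8, a difference of -1.66 ± 0.29. Orc1, the ATPase subunit whose protein varies over the cell cycle, had the largest error of the 48 genes, and after normexp background correction its difference was -0.64. Orc3, a subunit of the ORC core, had levels of -0.02, 0.36, 0.50 and 0.56, each OSKM array above the control and day 8 by 0.57 ± 0.15. Its 2 probes gave 0.12 and 1.02. Orc2 (-0.34 ± 0.20) and Orc6 (-0.48 ± 0.20) were lower by less than 2-fold. Orc5 was above the control by 0.34 ± 0.21 at day 4 and by 0.02 ± 0.21 at day 8. Orc4 was 0.40 below the control at day 4 and at 0.01 ± 0.15 at day 8, and its 2 probes were of opposite sign (-0.27 and 0.28). The ORC median at day 8 was -0.17, and the change of Orc1 minus that of Orc6 was -1.19 ± 0.36. After normexp correction these genes were at -0.64 and -0.49, closer than the error.

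The loading factors and their inhibitor all fell. Cdc6, the ATPase that joins ORC to recruit the helicase, had levels of -0.85 in the control and -2.28, -2.39 and -2.74 at days 4, 6 and 8. Its difference at day 8 was -1.89 ± 0.15, or -1.27 after normexp correction, with probes at -2.21 and -1.58, and 75.5% of it was present by day 4. Cdt1, which delivers MCM2-7 to the origin, went from 3.74 to 2.89, 2.49 and 1.60, a difference of -2.14 ± 0.20, of which 40.0% was present by day 4. Gmnn encodes geminin, the protein that binds CDT1 and blocks relicensing in S and G2 phase. It went from -0.96 to -2.41, -3.10 and -3.79, a difference of -2.83 ± 0.28 that left 14.1% of the control signal. At days 6 and 8 only 1 of its 2 probes was well above background, and the probes gave -2.91 and -2.75. The gap between the changes of Gmnn and Cdt1 was -0.69 ± 0.34, but the order turned after normexp background correction, with Gmnn at -1.65 and Cdt1 at -2.10, so neither gene can be said to have fallen further.

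The clamp and its main loader changed less. Pcna, the sliding clamp, had levels of 5.36 in the control and 4.59, 4.39 and 4.34 at days 4, 6 and 8. Its difference of -1.03 ± 0.20 was within 1 error of the 2-fold line, and it was -0.80 after quantile normalization. Of the loader RFC, which opens PCNA around DNA, Rfc2 (-1.12), Rfc3 (-1.43) and Rfc4 (-1.31) had fallen at day 8 and none of the 5 subunits at day 4. Rfc2 was at -0.998 after normexp correction with quantile normalization, just short of 2-fold. Rfc3 had levels of -0.04, -0.72, -0.91 and -1.47. Rfc1, the large subunit found only in the canonical loader, had levels of 3.07, 3.37, 3.46 and 3.31. All OSKM arrays were above the control for Rfc1, by 0.24 ± 0.20 at day 8, while scaling to the array median gave -0.03. Rfc5 was at -0.54 ± 0.15, with probes at -0.92 and -0.15.

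By contrast, the measured subunits of the alternative loader, in which RFC1 is replaced and which acts in sister chromatid cohesion, had 2 of the larger falls. Dscc1 had levels of 0.02 in the control and -1.10, -1.81 and -2.92 at days 4, 6 and 8, a difference of -2.94 ± 0.21 that left 13.0% of the control signal. Chtf18, the subunit that takes the place of RFC1, went from 1.96 to 0.91, 0.33 and -0.63, a difference of -2.59 ± 0.20. The changes of Dscc1 and Rfc1 differed by -3.18 ± 0.30.

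The subunits of a polymerase did not all fall. For polymerase alpha-primase, which lays down primers, Prim1 and Pola2 fell and Pola1 and Prim2 did not. The small primase subunit Prim1 had levels of 3.14, 2.45, 1.88 and 1.25, a difference of -1.89 ± 0.20, and Pola2, the accessory subunit, was at -1.60 ± 0.22, or -0.91 after normexp background correction. Pola1, the catalytic subunit, was at -0.67 ± 0.20. The large primase subunit Prim2 had levels of -0.28, -0.68, -0.89 and -0.91, a difference of -0.63 ± 0.16, but its 2 probes disagreed, at -1.33 and 0.07, and the brighter of them alone would pass 2-fold.

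Both catalytic subunits of the leading and lagging strand polymerases fell, Pole by 1.75 and Pold1 by 1.93 on the log2 scale. Of the accessory subunits, Pole2 and Pold2 parted. Pole2 went from 0.52 in the control to -0.34 at day 4, -1.04 at day 6 and -1.75 at day 8, a difference of -2.27 ± 0.21. Pold2 had levels of 1.19, 1.27, 0.80 and 0.52, so that day 4 was level with the control within its error (0.08 ± 0.20) and day 8 was at -0.67 ± 0.20. The changes of Pole2 and Pold2 differed by -1.60 ± 0.29. Further accessory subunits are counted below among the other pathway genes. Of these, Pole4 was at -1.17 at day 8, and Pold4 (-0.62), Pole3 (-0.55) and Pold3 (-0.28) did not reach 2-fold.

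RPA coats single-stranded DNA as a trimer. Rpa2, its middle subunit, had levels of 1.02, -0.08, -0.34 and -0.68 and fell by 1.70 (± 0.20) on the log2 scale. Rpa3, the smallest subunit, had levels of 3.79, 3.69, 3.58 and 3.27, a difference of -0.52 ± 0.20. Rpa1, the large subunit, was at -0.79 ± 0.14 with probes at -0.96 and -0.62. The changes of Rpa2 and Rpa3 thus differed by -1.18 ± 0.29, which was beyond the error of the arrays.

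The enzymes that process and seal Okazaki fragments had the same change at day 8 within the error, and not at day 4. Fen1, the flap endonuclease, had levels of 4.29, 3.13, 3.02 and 2.52, and Lig1, the ligase, had levels of 4.44, 3.80, 3.16 and 2.68. Both were at -1.76 ± 0.20 at day 8, with a difference between them of 0.00 ± 0.29. At day 4 Fen1 was at -1.16 and Lig1 at -0.64. Fen1 reached 65.9% of its fall by day 4 and Lig1 36.5%.

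CAF-1 places histones on newly copied DNA. Its large subunit Chaf1a had levels of 2.36, 1.18, 0.78 and 0.23 (difference -2.12 ± 0.20), and its middle subunit Chaf1b had levels of 3.72, 2.60, 1.90 and 0.98 (difference -2.74 ± 0.14). Chaf1a and Chaf1b had both fallen by 2-fold at day 4, and at day 8 the change of Chaf1b minus that of Chaf1a was -0.62 ± 0.25. With dim probes kept, Chaf1b was at -1.85 and the order of Chaf1a and Chaf1b turned. The small subunit gene Rbbp4, counted below among the other pathway genes, did not reach 2-fold. It was at -0.385 at day 4 and at -0.57 ± 0.15 at day 8.

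Of the enzymes of nucleotide supply, Tk1, Rrm1 and Rrm2 fell and Tyms did not. Tk1, the thymidine kinase of the salvage pathway, had levels of 3.15 in the control and 1.86, 0.97 and -0.04 at days 4, 6 and 8, a difference of -3.19 ± 0.15 that left 11.0% of the control signal. That was the lowest value of the 48 genes, and its 2 kept probes differed by 0.08. With the dim probe kept as well, Tk1 was at -2.23 and Dscc1, Gmnn, Mcm5, Chtf18, Gins2 and Pole2 lay below it. Tyms, which makes thymidylate by the de novo route, had levels of -1.24, -1.62, -1.86 and -1.90, a difference of -0.66 ± 0.21. The changes of Tk1 and Tyms differed by -2.52 ± 0.25. Rrm1 and Rrm2, the large and small subunits of ribonucleotide reductase, fell by nearly the same amount, -1.85 ± 0.20 and -1.79 ± 0.20, with a difference of 0.06 ± 0.29.

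**Figure D3:**
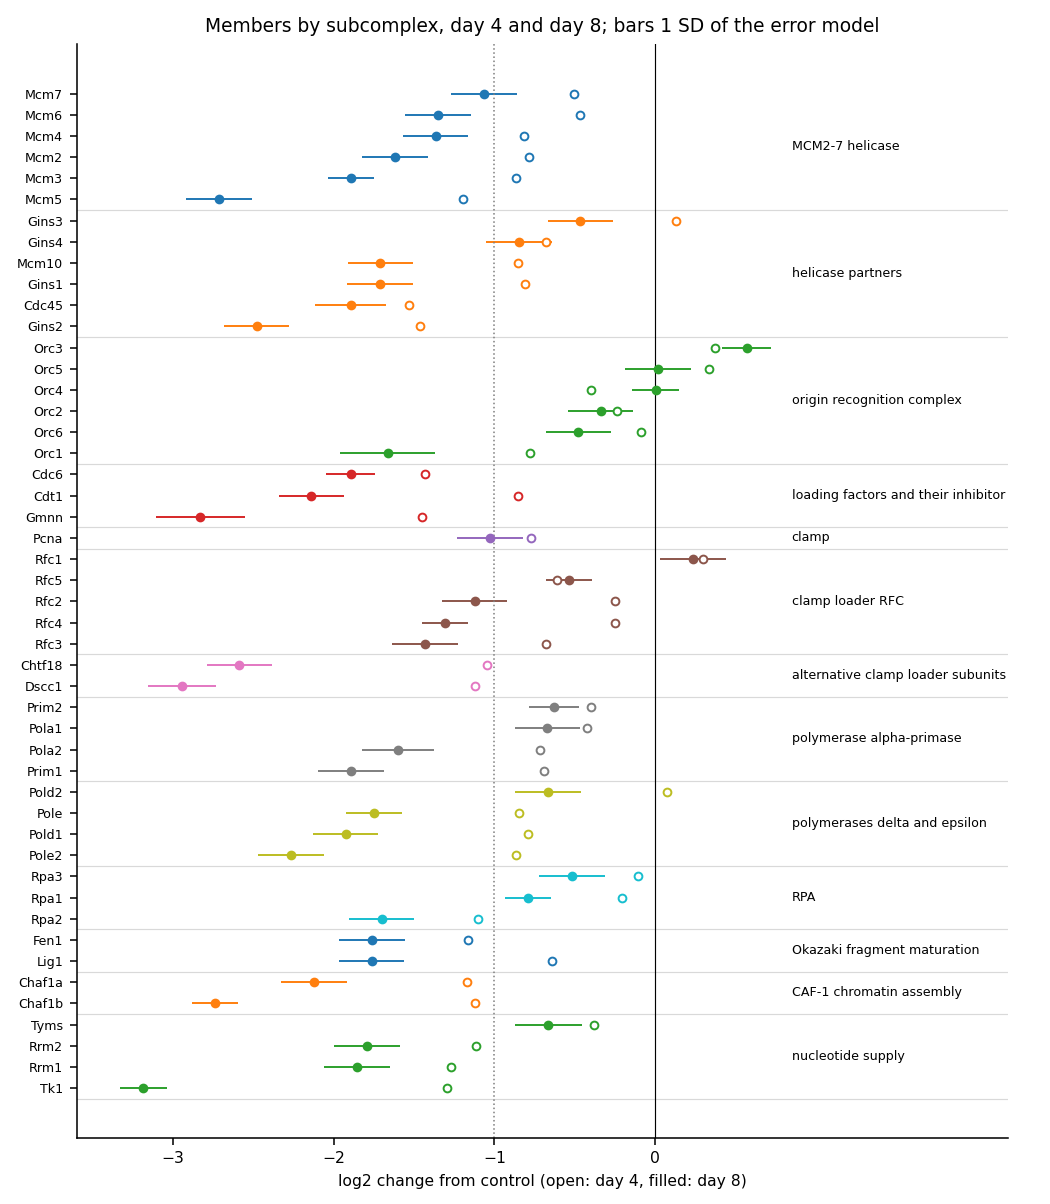
Log2 change from the control at day 4 (open circles) and day 8 (filled circles, bars 1 SD of the error model) for each of the 48 genes, grouped by subcomplex; the dotted line marks a 2-fold fall and the solid line no change. Genes lie on both sides of the dotted line at day 8 within the helicase partners, ORC, RFC, RPA, both polymerase groups and nucleotide supply, from Tk1 at -3.19 to Orc3 at 0.57.

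Ordered by their median difference at day 8, the groups ran from the alternative loader subunits (-2.77), CAF-1 (-2.43) and the loading factors (-2.14) through polymerases delta and epsilon (-1.84), nucleotide supply (-1.82), Okazaki fragment maturation (-1.76), the helicase partners (-1.71) and MCM2-7 (-1.49) to polymerase alpha-primase (-1.13), RFC (-1.12), PCNA (-1.03), RPA (-0.79) and ORC (-0.17). After normexp correction CAF-1 (-2.33) came before the alternative loader subunits (-2.25), and the loading factors (-1.65) came after nucleotide supply (-1.81) and Okazaki fragment maturation (-1.77). The groups hold between 1 and 6 genes. Their medians describe the listed genes and not whole complexes, since Chtf8, Rbbp4, Pold3, Pold4, Pole3 and Pole4 are not counted in them. Each of these 6 genes had a smaller change than the median of its group. All 6 MCM2-7 genes, both listed CAF-1 genes and both listed alternative loader genes lay below the ORC genes other than Orc1. The 10 genes that fell by at least 4-fold were Tk1, Dscc1, Gmnn, Chaf1b, Mcm5, Chtf18, Gins2, Pole2, Cdt1 and Chaf1a. Of these, Gmnn (-1.65) and Pole2 (-1.88) were short of 4-fold after normexp correction, Cdt1 (-1.97) and Chaf1a (-1.95) after normexp with quantile normalization, and Chaf1b (-1.85) with dim probes kept. The 15 that did not fall by 2-fold were Gins3, Gins4, Orc2, Orc3, Orc4, Orc5, Orc6, Rfc1, Rfc5, Pola1, Prim2, Pold2, Rpa1, Rpa3 and Tyms. Within 1 error of the 2-fold line were Pcna (-1.03), Mcm7 (-1.06) and Rfc2 (-1.12) on one side and Gins4 (-0.85) on the other.

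The genes did not pass the 2-fold line on the same day. The 14 genes that had fallen at day 4 were Mcm5, Cdc45, Gins2, Cdc6, Gmnn, Dscc1, Chtf18, Rpa2, Fen1, Chaf1a, Chaf1b, Rrm1, Rrm2 and Tk1, and all 14 were still below the 2-fold line at day 8. After normexp correction the count at day 4 was 8. A further 13 passed it by day 6, among them Mcm2, Mcm3, Mcm4, Cdt1, Orc1, both polymerase catalytic subunits and Lig1. The last 6, Mcm6, Mcm7, Pcna, Rfc2, Rfc3 and Rfc4, passed it by day 8. The day of passing depends on the size of the fall too, so it is no measure of the course alone. Mcm5 had 44.0% of its fall by day 4 and was among the first, whereas Pcna had 75.5% and was among the last. Over the 33 genes that fell, the median share of the log2 fall present by day 4 was 47.1%, from 19.2% for Rfc4 to 80.7% for Cdc45. Within the loading factors the shares were 75.5% for Cdc6, 51.2% for Gmnn and 40.0% for Cdt1. With 1 array a day these shares have no error from replicates, and they were computed with the 75th percentile as the scale and no other setting.

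Among the OSKM-CMPs alone, where the control array plays no part, most of the genes were lower again at day 8 than at day 4. Day 8 was at least 2-fold below day 4 for 14 of the 48 genes, against 4.10% of all genes, with a median difference of -0.75 for the replication genes and -0.03 for all genes. The largest differences were those of Tk1 (-1.89 ± 0.15), Dscc1 (-1.82 ± 0.21), Chaf1b (-1.62 ± 0.14), Chtf18 (-1.54 ± 0.20) and Mcm5 (-1.52 ± 0.20). From day 4 to day 6, 0 of the 48 fell by 2-fold (2.64% of all genes did), and from day 6 to day 8 Dscc1 (-1.11) and Tk1 (-1.01) did (1.01% of all genes). None of the 48 rose by 2-fold in these steps, where 2.84% of all genes did from day 4 to day 6, 2.44% from day 6 to day 8 and 4.93% from day 4 to day 8. Gins4 (-0.17 ± 0.20), Rfc5 (0.08 ± 0.15), Rfc1 (-0.06 ± 0.20) and Orc2 (-0.10 ± 0.21) were level within their error from day 4 to day 8. Orc4 was higher at day 8 than at day 4, by 0.41 ± 0.15.

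**Figure D4:**
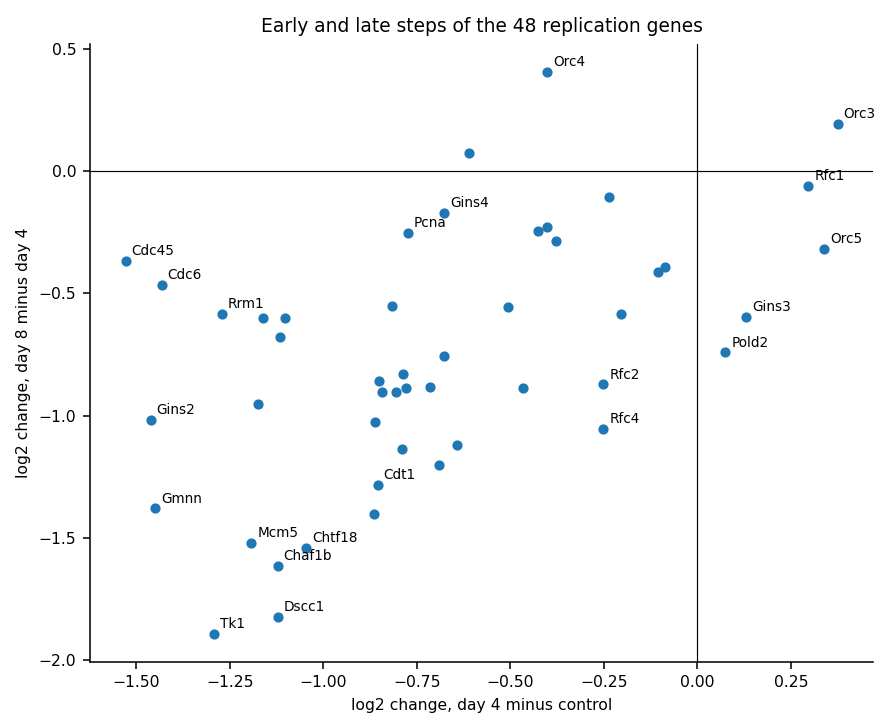
Log2 change from the control to day 4 (x axis) against log2 change from day 4 to day 8 (y axis) for the 48 genes, 1 point per gene; both axes use the day 4 array, so they are not independent. Tk1, Dscc1 and Chaf1b lie low on the y axis, Cdc45 and Cdc6 lie far left with later steps of -0.37 and -0.46, and Rfc4 and Rfc2 have most of their fall after day 4.

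Positions of the E2F words differed between genes. The 14 genes held 20 words, 12 before the start and 8 from the start on. Mcm5 had its overlapping pair at -153 and -149, counted from the first transcribed base as 0 and given for the first base of the word. Mcm6 had words at -110, -106 and -47, Mcm7 at -165 and 16, Mcm3 at 19 and 38, Cdc6 at -138, Orc1 at -27 and Rfc3 at -10 and 0. Words were found in 11 of the 26 genes with a window that fell at day 8 and in 3 of the 13 others, Orc3, Gins3 and Pola1. CCAAT, the word of the NF-Y site, was in 25 of the 39 windows' genes (64.1%, against 41.1% of all genes with a window), 16 of the 26 that fell and 9 of the 13 others. CACGTG, the E-box bound by Myc and other factors, was in 8 of 39 (20.5%, against 8.09% of all genes with a window), 4 of the 26 and 4 of the 13. These are matches of letters, and binding was not measured.

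**Figure D5:**
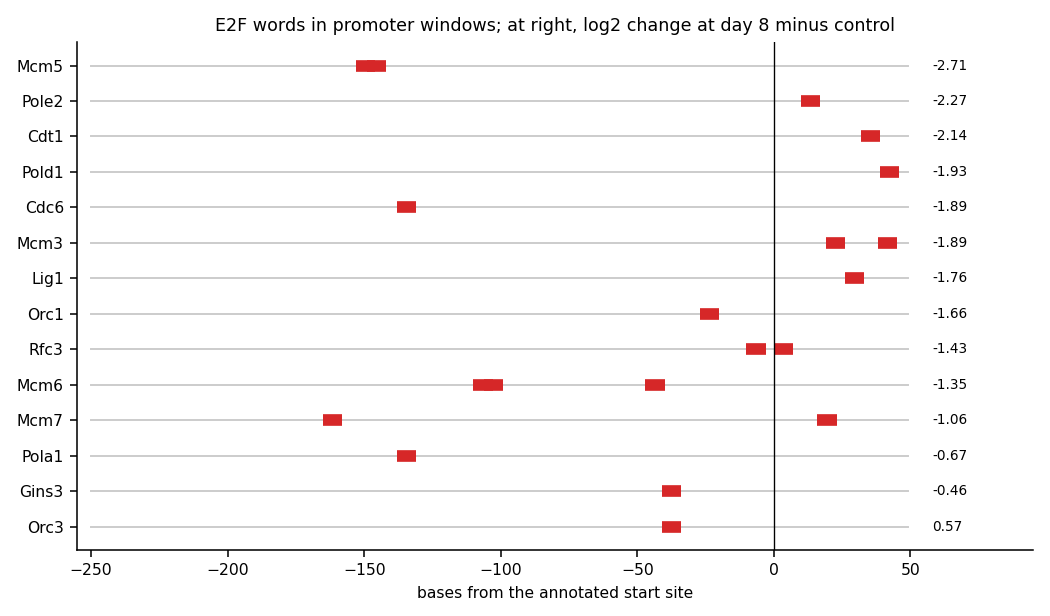
Position of the E2F words (red boxes) in the promoter windows of the 14 genes that hold one, in bases from the annotated start site (x axis), with genes ordered by their log2 change at day 8, printed at right. Mcm5 (-2.71) and Orc3 (0.57), at the ends of the order, both hold a word before the start.

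Other genes of the pathway behaved less uniformly. Of 52 further genes for fork and origin firing, nucleotide supply and replication-coupled chromatin, 7 had fallen by 2-fold at day 4, 17 at day 6 and 22 at day 8, with a median of -0.82 at day 8, and 1 had risen at day 8. Of all genes, 9.56%, 11.4% and 11.6% had fallen on these days and 14.4% had risen at day 8. In the 31 fork and origin genes the median was -0.83, with falls of Uhrf1 (-3.40), which reads hemimethylated DNA behind the fork, Top2a (-2.41), a topoisomerase, and Clspn (-2.03), a checkpoint mediator, and the highest values in Atad5 (0.59), a PCNA unloader, and Mcm9 (0.30). In the 11 nucleotide genes the median was -0.36, with falls of Shmt2 (-1.43), a mitochondrial enzyme of serine metabolism, and of the dUTPase gene Dut (-1.40) and the highest values in the deaminase gene Dctd (0.65) and in Samhd1 (0.39), whose product degrades deoxynucleotides. In the 10 chromatin genes the median was -0.86. There the paralogous histone chaperones Asf1b and Asf1a went opposite ways, at -3.10 ± 0.20 and 1.23 ± 0.21, Tonsl (-2.13) and the histone chaperone gene Nasp (-1.51) fell, and Supt16 was at 0.07. Of 10 E2F and DP factor genes, E2f8 (-2.37) and E2f1 (-1.27) fell, E2f7 was at -0.97, and the list had a median of -0.28. E2f2 was higher by 1.00 ± 0.20, within 1 error of the 2-fold line. These lists and that of mitosis were computed under the main setting only, so normexp values are not given for their genes.

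Genes of mitosis moved with the replication genes and further. Of 25 listed, 24 were measured and all 24 had fallen at day 8, with a median of -2.74, from the kinetochore gene Ndc80 (-3.65), the kinase gene Plk1 (-3.52) and the kinesin gene Kif2c (-3.43) to Cenpf (-1.14). Their medians at days 4 and 6 were -1.23 and -2.05, below those of the replication genes on the same arrays (-0.78 and -1.15). The part of a change in the share of cycling cells in these values was not tested.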

How the data were processed

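Cy3-labelled total RNA (250 ng) was hybridised to SurePrint G3 mouse arrays, 1 per condition. The authors extracted the spot intensity with Agilent Feature Extraction (10.7.3.1 by the file headers, 9.5.3 by the submitters' processing notes), and the processed intensity they deposited is background-subtracted. They also deposited log2 values normalized in GeneSpring, which equal the log2 processed signal less a constant per array. Each file's 62976 spots include 3671 controls, which were left out with 87 to 106 outlier spots per array. Here the log2 processed intensity was averaged over the spots of a probe and the array's 75th percentile subtracted. A filter kept 35547 of 55681 probes, those marked by the scanner software as well above background on 1 array or more. Probes were named by the symbol or synonym in the files through the RefSeq table of GRCm38.p6 (27730 by symbol, 3296 by synonym, 194 by accession, 24461 unmatched), and kept probes of one gene were averaged. The array files place probes on mm9, and no probe position is given.

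With 1 array per condition, no test was made. Called means at least 2-fold. Between 282 and 298 probes were spotted 10 times, with a median SD between spots of 0.063 to 0.066 (log2); the number of arrays limits the precision further. For each subcomplex the genes with the lowest and highest day 8 difference have their level on all 4 arrays given, and up to 3 falls and 2 rises are named per pathway list, apart from 1 gene that is not reported here. The members, lists and tests were chosen with earlier results of these data known. Alternatives were normexp correction (limma 3.58.1, R 4.3.3, offset 50) under the 75th percentile or followed by quantile normalization, the array median or quantiles of the processed signal as the scale, the deposited log2 values, other filters and a floor for dim probes, other rules for several probes of a gene, naming by accession, and thresholds of 1.5-fold and 3-fold. Python 3.11.15, numpy 2.4.6 and pandas 2.3.3 were used, and the steps were tested on simulated data.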

Additional observations from a re-analysis of the deposited data

How the results depend on the processing

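No group median or member past 2-fold changed sign: of 227 group values and counts, 185 moved by less than the error of a typical member (or, for counts, less than 1.5 times), 42 moved further and 0 reversed, and of 528 values of single members 424 and 104 did so. Only medians and members past 2-fold could be scored as reversed, so the counts and the smaller values add nothing to that 0. The count of members 2-fold lower at day 8 was 33 and ranged from 28 to 35. Values near 0 are not called in either direction: Orc4 and Orc5 were at -0.26 and -0.25 on the array median and Rfc1 at -0.03. The cause of these shifts was not tested, apart from that of the scale itself.

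Normexp correction with the 75th percentile gave day 8 medians of -1.25 for all 48 genes, -1.31 for the helicase partners, -1.65 for the loading factors, -2.25 for the alternative loader subunits, -0.78 for polymerase alpha-primase and -1.53 for polymerases delta and epsilon, and 8 in place of 14 genes lower at day 4. Normexp with quantile normalization gave -0.88 for all 48 genes at day 6 and, at day 8, -1.15 for all 48, -1.33 for the partners, -1.64 for the loading factors, -0.79 for PCNA, -2.24 for the alternative loader subunits, -0.80 for polymerase alpha-primase, -1.45 for polymerases delta and epsilon, -0.55 for RPA and -1.61 for nucleotide supply, with 8 genes lower at day 4. Quantile normalization without normexp gave -0.80 for PCNA, -0.57 for RPA and -1.62 for nucleotide supply. The array median moved all genes together, by construction, and gave -1.91 for all 48, -1.76 for MCM2-7, -1.98 for the partners, -0.43 for ORC, -2.41 for the loading factors, -1.29 for PCNA, -1.39 for RFC, -3.03 for the alternative loader subunits, -1.40 for polymerase alpha-primase, -2.10 for polymerases delta and epsilon, -1.06 for RPA, -2.03 for Okazaki fragment maturation, -2.70 for CAF-1 and -2.09 for nucleotide supply. It also raised the share of lower genes among all genes changed by 2-fold from 44.7% to 59.97%. Normexp correction with the 75th percentile raised that share from the same 44.7% to 54.2%. Keeping dim probes gave -1.55 for polymerases delta and epsilon and -1.99 for CAF-1. The brightest probe and naming by accession each gave -1.46 for polymerase alpha-primase. At 1.5-fold 31 genes were lower at day 4 (18.2% of all genes), and at 3-fold 0 at day 4 (4.82%) and 9 at day 6 (5.98%).

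No paired analysis was possible because there is only 1 array for each condition. Leaving out an array would remove its condition, and the errors given cover the array and not the cells.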
